A study of Mus musculus with 12 samples.

Results

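The small leucine-rich proteoglycans were followed across 12 RNA sequencing libraries of mammary tumours that 4T1-LUC cells formed in BALB/c mice. Per the labels the mice were 4 to 6 weeks old. The family was taken as 8 genes found by symbol in the table of 21899 genes: Fmod, Lum, Prelp, Omd, Bgn, Dcn, Aspn and Ogn. It was picked because Fmod stood higher in the combination than the single measures would add up to, so the Fmod levels and the departures from additivity are given as description, with no test. There were 4 groups of 3 libraries. The combination group received curcumin (100 mg/kg in corn oil) by gavage and swam for 30 min a day, the curcumin group received curcumin alone, the swimming group received corn oil and swam, and the control group received corn oil alone. All groups carried tumours of this 1 line, a luciferase-marked mouse mammary carcinoma, and each daily gavage was 200 µL. Swimming is named in the titles of its libraries and in the protocol, whereas their treatment label gives corn oil only. The labels call the cells breast cancer cells, yet the RNA came from tumour tissue and markers of fibroblasts, vessels and leukocytes were all present. In such bulk samples fewer cells of a type and less RNA per cell cannot be told apart. The labels do not say whether replicates came from separate tumours or mice, and the p-values therefore reflect the spread among these libraries, which may be technical.

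Small leucine-rich proteoglycans are secreted matrix proteins whose curved leucine-rich repeat domain binds collagen fibrils and sets their diameter and spacing. Decorin (Dcn), biglycan (Bgn) and asporin (Aspn) form class I. Fibromodulin (Fmod), lumican (Lum), prolargin (Prelp) and osteomodulin (Omd) form class II, and osteoglycin (Ogn) belongs to class III. Decorin and biglycan carry chondroitin or dermatan sulfate chains, fibromodulin and lumican can carry keratan sulfate, and asporin carries no such chain. Several members also bind TGF-β, and in solid tumours the family is made largely by fibroblasts and other stromal cells.

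Compared per length, biglycan was by far the most abundant member. Over the 12 libraries its FPKM, the authors' length-normalised value, averaged 107.5, above 98.1% of the 13638 genes tested. Lum averaged 7.89 FPKM, Dcn 5.22, Aspn 4.18, Fmod 3.59, Prelp 1.98, Ogn 0.912 and Omd 0.0823. Within that order the library ranges of Lum, Dcn, Aspn and Fmod overlapped one another, while the lowest Bgn library (49.7 FPKM) lay above the highest Lum library (13.8 FPKM). Bgn alone held 70.3% to 88.3% of the family's summed FPKM in every library. The sums were 181, 202 and 178 FPKM in the combination libraries, 138, 143 and 143 in the curcumin libraries, 107, 115 and 67.3 in the swimming libraries and 115, 61.1 and 125 in the control libraries. The combination libraries had the 3 highest sums, and control 2 had the lowest. Fmod made up 4.36 ± 0.42% of the family sum in the combination (SD, n = 3), 1.39 ± 0.31% under curcumin, 2.14 ± 0.15% under swimming and 2.32 ± 0.48% in controls.

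**Figure D1:**
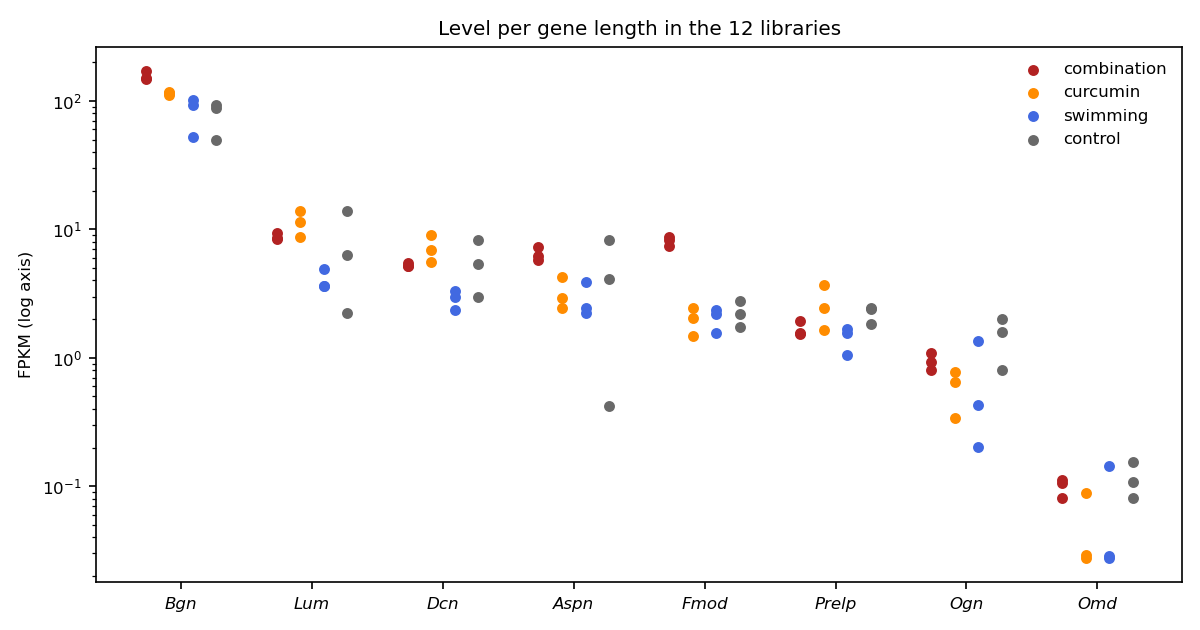
Level of each member in FPKM (log axis) in the 12 libraries, with 1 point per library and the groups side by side. Bgn stands above all other members in every library, and Omd lies below 0.2 FPKM throughout.

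Fibromodulin, which binds fibrillar collagen and affects its assembly and crosslinking, was at 29.0, 27.9 and 24.4 CPM (counts scaled to library size, with TMM factors) in the combination libraries. It stood at 4.70, 7.91 and 6.55 CPM in the curcumin libraries, at 7.50, 8.06 and 5.20 CPM in the swimming libraries and at 7.15, 5.86 and 8.87 CPM in the control libraries. All 3 combination libraries lay above all 9 others, while the curcumin, swimming and control libraries overlapped. These values rest on 78 to 479 reads per library. The log2 fold change was 1.89 ± 0.22 (SE) for combination against control, a 3.71-fold difference, and it was 2.09 ± 0.22 against curcumin and 1.97 ± 0.22 against swimming. Curcumin against control gave -0.19 ± 0.22 and swimming against control gave -0.08 ± 0.22 for Fmod. These contrasts chose the family, so no p is attached to them, and leaving out any 1 library kept combination against control between 1.76 and 2.06.

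Fmod (ENSMUSG00000041559) lies on chromosome 1 from 133964992 to 133976015 on the plus strand in the coordinates of the deposited table, 115839 bp from Prelp (ENSMUSG00000041577, 133838042 to 133849152, minus strand). The promoters of 6 members were in the RefSeq table used (build GRCm38.p6), and those of Fmod, its neighbour Prelp and Bgn are shown, as these are the member that defines the family, a close neighbour that did not follow it and the most abundant member. The windows are chr1:134037004-134037253 on the plus strand for Fmod, chr1:133921402-133921651 on the minus strand for Prelp and chrX:73483351-73483600 on the plus strand for Bgn. Each run is the 250 bases before the annotated start, read 5′ to 3′ on the gene's own strand, and capitals mark matches to CAGAC on either strand (GTCTG when read on the opposite strand), a short element bound by Smad proteins.
Fmod: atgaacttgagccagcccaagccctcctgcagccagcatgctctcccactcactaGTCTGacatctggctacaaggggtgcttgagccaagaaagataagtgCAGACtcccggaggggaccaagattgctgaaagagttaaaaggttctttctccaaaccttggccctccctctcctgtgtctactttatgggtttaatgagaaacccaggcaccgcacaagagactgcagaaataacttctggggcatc
Prelp: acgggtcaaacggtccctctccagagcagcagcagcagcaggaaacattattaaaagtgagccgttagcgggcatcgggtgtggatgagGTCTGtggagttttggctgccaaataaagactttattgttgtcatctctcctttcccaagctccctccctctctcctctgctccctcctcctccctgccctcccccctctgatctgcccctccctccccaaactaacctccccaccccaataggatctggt
Bgn: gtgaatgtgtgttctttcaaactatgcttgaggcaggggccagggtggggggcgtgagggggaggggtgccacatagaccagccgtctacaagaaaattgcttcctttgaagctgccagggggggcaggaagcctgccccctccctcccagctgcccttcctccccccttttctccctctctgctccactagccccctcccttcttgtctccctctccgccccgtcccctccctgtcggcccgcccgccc
CAGAC was found 2 times before Fmod (first base at -195 and -148), 1 time before Prelp (-161) and not in the Bgn window, and 42.2% of 32841 promoters of the same length hold it. None of the 3 windows held the AP-1 motif TGANTCA (6.75% of promoters), the nuclear receptor motif AAAGGTCA (1.34%), TATAAA (12.4%) or the TEAD motif CATTCC (12.6%). The Bgn window was the richest of the 3 in G and C (64.4%, with 7 CpG), against 51.2% and 2 CpG for Fmod, 55.6% and 5 CpG for Prelp and medians of 52.4% and 6 CpG over all promoters. These matches describe letters only and do not show binding.

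**Figure D2:**
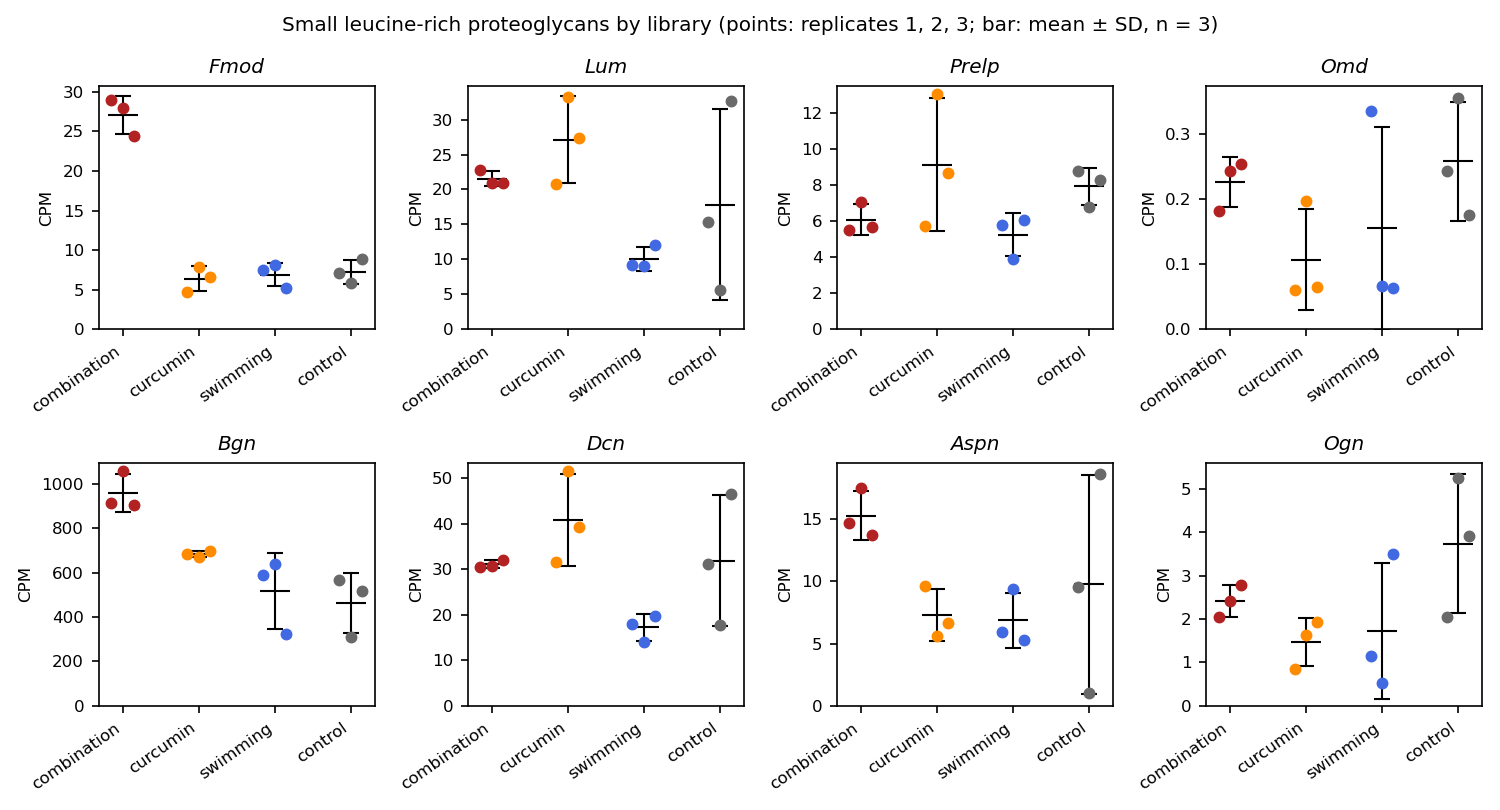
Each panel gives 1 member in CPM (linear axis from 0), with points for the 3 replicates of a group and bars for mean ± SD. Fmod in the combination (24.4 to 29.0 CPM) stands clear of the other groups, whereas Lum, Dcn and Aspn spread widely among the controls. The lower Omd bar of the swimming group is clipped at 0.

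Biglycan, a class I proteoglycan of collagen-rich matrix that can also signal through Toll-like receptors when released, was the only member called in any comparison, Fmod being untested. A gene was called at an edgeR adjusted p of 0.05 or below over all 13638 tested genes. Bgn (ENSMUSG00000031375, X, 72527208 to 72539539, plus strand) had 912, 1058 and 904 CPM in the combination libraries and 683, 669 and 696 CPM in the curcumin libraries. It had 591, 637 and 322 CPM in the swimming libraries and 566, 310.1 and 517 CPM in the control libraries. Every combination library was above every other library, and every curcumin library was above every control and swimming library. Bgn rose 2.06-fold in the combination against control (log2 fold change 1.05 ± 0.25, edgeR adjusted p = 0.0439), with 3 of 3 libraries above all controls. This made 1 of the 6 tested members other than Fmod called, where 4.86% of all tested genes were called and 32.1% did not overlap between these groups. Against swimming the difference was 0.89 ± 0.25 (edgeR adjusted p = 0.0579), against curcumin it was 0.49 ± 0.25 (edgeR adjusted p = 0.326), and for curcumin against control it was 0.56 ± 0.25 (edgeR adjusted p = 0.452). The Bgn call against control was close to the threshold. Leaving out any 1 of the combination or curcumin libraries, control 2, control 3 or swimming 1 took its edgeR adjusted p to between 0.0576 and 0.16, at log2 fold changes of 0.83 to 1.13. Over all alternatives the edgeR, DESeq2 or limma adjusted p ran from 0.000526 (DESeq2) to 0.61 (combination libraries summed). The difference from swimming passed the threshold without control 1 (edgeR adjusted p = 0.0442), control 2 (0.0146) or swimming 2 (0.0452), in a range of 0.00323 to 0.533 over all alternatives.

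Decorin and lumican, neighbours on chromosome 10 that both limit fibril thickness, had their lowest group means in the swimming tumours. The lowest single library for Lum was control 2 (5.56 CPM). Dcn (ENSMUSG00000019929, 97315471 to 97354005, plus strand) had 30.5, 30.7 and 32.2 CPM in the combination libraries, 31.6, 51.6 and 39.4 CPM in the curcumin libraries, 18.1, 14.01 and 19.7 CPM in the swimming libraries and 31.3, 17.8 and 46.6 CPM in the control libraries. The swimming libraries lay below all combination and curcumin libraries but overlapped control 2. For swimming against curcumin the log2 difference in Dcn was -1.24 ± 0.29 (edgeR adjusted p = 0.0564), just outside the threshold. Combination against swimming gave 0.85 ± 0.29 (edgeR adjusted p = 0.0953), swimming against control -0.89 ± 0.29 (edgeR adjusted p = 0.241) and combination against control -0.04 ± 0.29 (edgeR adjusted p = 0.949). Combination against swimming passed for Dcn without control 2 (edgeR adjusted p = 0.0111) or control 3 (0.0482), in a range of 0.00278 to 0.571 over all alternatives.

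Lum (ENSMUSG00000036446, 97400990 to 97408565, plus strand), which starts 46984 bp beyond the end of Dcn, had 22.8, 20.9 and 21.0 CPM in the combination libraries and 20.8, 33.3 and 27.3 CPM in the curcumin libraries. Its levels were 9.17, 9.05 and 12.03 CPM in the swimming libraries and 15.4, 5.56 and 32.6 CPM in the control libraries. Within the curcumin, swimming and control groups Lum and Dcn put their 3 libraries in the same order. Lum was at -1.42 ± 0.46 on the log2 scale for swimming against curcumin (edgeR adjusted p = 0.119) and at 1.09 ± 0.46 for combination against swimming (edgeR adjusted p = 0.156), with no overlap in either comparison. Control 2 weighed on both genes. Without it, swimming against control passed the threshold for Dcn (-1.17 ± 0.21, edgeR adjusted p = 0.012) and Lum (-1.25 ± 0.28, edgeR adjusted p = 0.0346), and so did swimming against curcumin for Dcn (edgeR adjusted p = 0.00335) and Lum (edgeR adjusted p = 0.0083). Without control 3, swimming against curcumin also passed for Dcn (edgeR adjusted p = 0.0281) and Lum (edgeR adjusted p = 0.0477). Combination against swimming passed for Lum without control 2 (edgeR adjusted p = 0.0148). Over all alternatives the adjusted p of swimming against curcumin ran from 0.00111 to 0.178 for Dcn and from 0.0083 to 0.283 for Lum. That of swimming against control ran from 0.012 to 0.691 for Dcn and from 0.0346 to 0.979 for Lum.

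Prelp, which anchors basement membranes to connective tissue, did not move with Fmod, its neighbour on chromosome 1. It had 5.51, 7.08 and 5.69 CPM in the combination libraries, 5.73, 13.1 and 8.67 CPM in the curcumin libraries, 5.82, 3.90 and 6.08 CPM in the swimming libraries and 8.78, 6.80 and 8.28 CPM in the control libraries. Only the swimming and control libraries failed to overlap, with swimming lower (-0.59 ± 0.28 on the log2 scale, edgeR adjusted p = 0.397). For combination against control the difference in Prelp was -0.38 ± 0.28 (edgeR adjusted p = 0.388). Up to 350 of the 3615 exonic bases of Prelp are shared with Gm15851 on the opposite strand, and whether counting used strand is not stated. Omd, a proteoglycan best known from bone, was measured at 1 to 6 reads per library and was not tested. Its summed counts were 11 in the combination, 5 under curcumin, 7 under swimming and 13 in controls, at the limit of detection, since 3 reads correspond to 0.174 to 0.199 CPM.

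Aspn, Omd and Ogn lie side by side on chromosome 13 inside the span of Cenpp, which runs on the opposite strand. Aspn (ENSMUSG00000021388, 49697919 to 49721041, plus strand), a collagen-binding and TGF-β-binding member found in the stroma of several carcinomas, had 14.7, 17.5 and 13.7 CPM in the combination libraries and 9.64, 5.62 and 6.68 CPM in the curcumin libraries. It had 5.96, 9.38 and 5.26 CPM in the swimming libraries and 9.57, 1.01 and 18.7 CPM in the control libraries. The combination libraries were above all curcumin and all swimming libraries, but the controls ran from below to above every other group, and the range of Aspn over the 12 libraries, 19.7-fold in FPKM (0.418 to 8.23), was the widest of any member. Aspn differed by 1.06 ± 0.66 on the log2 scale for combination against curcumin (edgeR adjusted p = 0.423), by 1.15 ± 0.66 for combination against swimming (edgeR adjusted p = 0.282) and by 0.65 ± 0.65 for combination against control (edgeR adjusted p = 0.544). Without control 2 the difference from swimming passed the threshold (1.16 ± 0.29, edgeR adjusted p = 0.0165), in a range of 0.00554 to 0.698 over all alternatives. Aspn shares 7 exonic bases with Cenpp, which itself was at 1.54 to 4.66 CPM.

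Ogn (ENSMUSG00000021390, 49761522 to 49777977, plus strand), a regulator of fibril assembly, had 2.06, 2.42 and 2.78 CPM in the combination libraries, 0.844, 1.63 and 1.93 CPM in the curcumin libraries, 1.14, 0.529 and 3.51 CPM in the swimming libraries and 2.06, 5.27 and 3.91 CPM in the control libraries. All 3 curcumin libraries were below all controls and all combination libraries. The log2 difference was -1.35 ± 0.56 for curcumin against control (edgeR adjusted p = 0.426) and 0.72 ± 0.57 for combination against curcumin (edgeR adjusted p = 0.528). Ogn was counted at 8 to 89 reads per library, so these differences are of low precision.

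Read comparison by comparison, the 6 tested members other than Fmod gave the 1 call of Bgn and no other. For curcumin against control 0 of 6 were called in edgeR (0% of all genes called), 2 had an unadjusted p under 0.05 (10.9% of all genes), and 2 did not overlap between groups (14.6% of all genes). For swimming against control 0 were called (0.308% of all genes) and 1 had an unadjusted p under 0.05 (13%), with 1 not overlapping (13.1%). For combination against curcumin 0 were called (0.851%) and 0 had an unadjusted p under 0.05 (18%), with 3 not overlapping, Bgn, Aspn and Ogn (37.1%). For combination against swimming 0 were called (6.66%) and 3 had an unadjusted p under 0.05 (27.4%), with 4 not overlapping, Bgn, Dcn, Lum and Aspn (40.6%). All 6 were higher in the combination than in swimming tumours, with a median log2 difference of 0.87 against -0.0049 over all tested genes. For swimming against curcumin 0 were called (1.78%) and 3 had an unadjusted p under 0.05 (21.8%), with 3 not overlapping, Bgn, Dcn and Lum (30.9%). In that comparison 5 of 6 were lower in swimming tumours, with a median of -0.60 against -0.02 over all tested genes. Swimming against control also had 5 of 6 lower (median -0.71). Combination against control had 3 higher and 3 lower (median 0.12), as did combination against curcumin (0.079). Curcumin against control had 4 higher and 2 lower (0.28). Over all tested genes the medians of these comparisons lay from -0.023 to 0.0021. In combination against control 1 member had an unadjusted p under 0.05 (26.6% of all genes) and 1 did not overlap (32.1%). Other tests moved the counts of calls. DESeq2 called 2 members in combination against swimming (Bgn and Dcn) and 1 in swimming against curcumin (Dcn), and limma voom called 3 and 2, adding Lum to both. In curcumin against control, swimming against control and combination against curcumin both tools called 0 members. Over all genes DESeq2 called 1886 in combination against swimming and 1032 in swimming against curcumin, and voom called 2797 and 907. The edgeR counts over all genes there were 908 and 243. The comparisons share libraries, so their counts are not independent of one another.

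**Figure D3:**
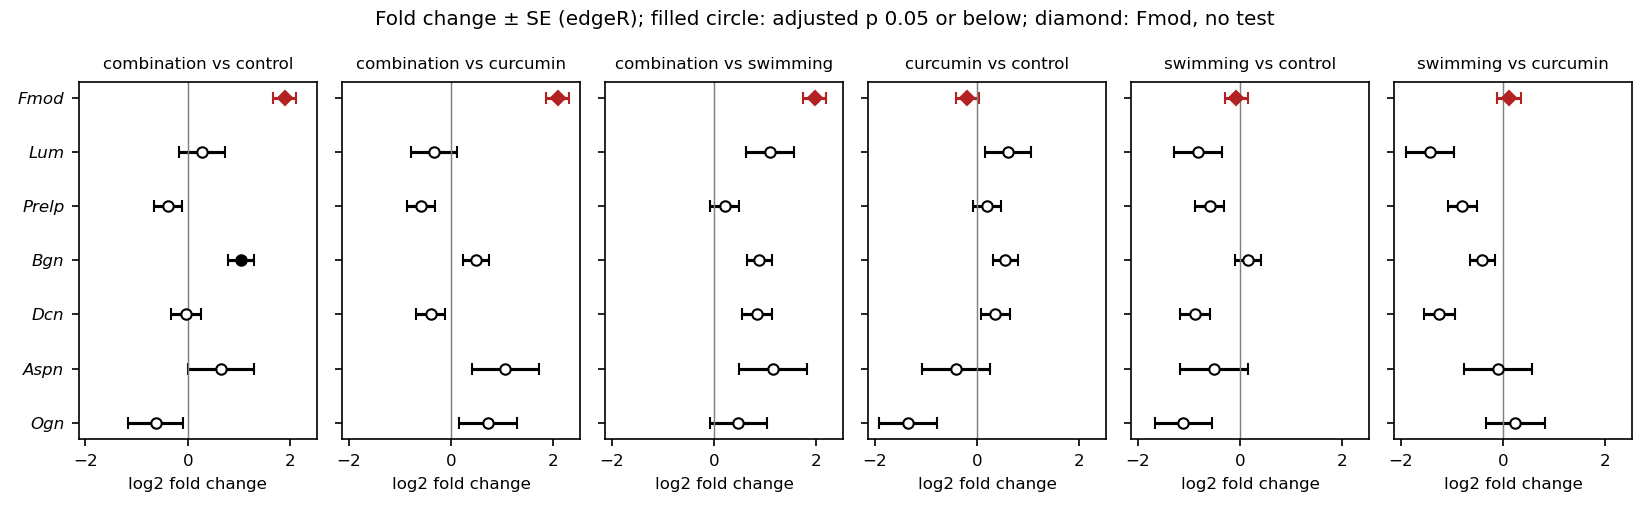
Log2 fold change ± SE of the 7 members fitted in edgeR, with 1 panel per comparison and Fmod drawn as a diamond because it was not tested. Bgn in combination against control (1.05) is the only filled circle, which marks an adjusted p of 0.05 or below.

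The family was picked on non-additivity, and this was spread unevenly over it. For Fmod the single changes summed to -0.27 on the log2 scale, against 1.89 in the combination, an interaction of 2.16 ± 0.31 (SE) that ranked 59 of 13638 from the highest. Ogn stood at 1.83 ± 0.80 and Aspn at 1.57 ± 0.93. For Ogn that value arose with a combination below control (-0.63) and with single changes that summed to -2.46. Dcn (0.49 ± 0.41), Lum (0.49 ± 0.64), Bgn (0.33 ± 0.35) and Prelp (0.01 ± 0.39) had smaller departures, of which that of Dcn alone was above its SE. For Bgn the combination (1.05) was close to the sum of the single changes (0.71). Over all tested genes 0.249% were called for this interaction, from which nothing is read for the members.

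**Figure D4:**
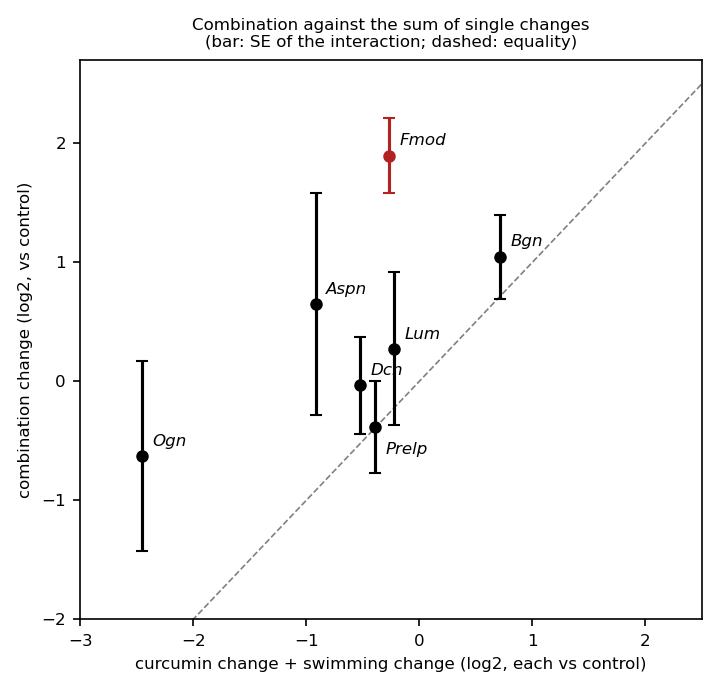
Log2 change of each member in combination against control (vertical) set against the sum of its curcumin and swimming changes (horizontal), with bars for the SE of the interaction and a dashed line of equality. Fmod lies 2.16 above the line, while Prelp (0.01) and Bgn (0.33) lie close to it.

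The 5 genes outside the family whose log2 CPM most resembled that of Fmod over the 12 libraries were Apba1 (Pearson r = 0.93, Spearman rho = 0.87), Arfgef3 (0.92 and 0.77), Thap12 (0.92 and 0.45), Col11a1 (0.92 and 0.90) and Frrs1 (0.92 and 0.76). The libraries share their groups, and most of this likeness is the step between the combination and the rest. Over the 9 libraries outside the combination r was 0.76 for Apba1, 0.59 for Arfgef3, -0.24 for Thap12, 0.57 for Col11a1 and 0.61 for Frrs1. These are descriptions of a ranking and were not tested.

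Among 14 collagen genes, 11 for fibrillar or fibril-associated chains and 3 for the filament-forming collagen VI (Col6a1, Col6a2 and Col6a3), 2 rose and 1 fell in the combination against control, and 11 fell short of the threshold. Of all tested genes 2.43% were called higher and 2.43% lower in this comparison. Col11a1, a chain that nucleates thin fibrils, averaged 18.4 ± 1.8 CPM in the combination, 4.18 ± 0.20 CPM under curcumin, 5.13 ± 1.04 CPM under swimming and 4.64 ± 2.71 CPM in controls (SD, n = 3). It rose by 1.98 ± 0.36 on the log2 scale against control (edgeR adjusted p = 0.0191), by 2.14 ± 0.36 against curcumin (edgeR adjusted p = 0.0259) and by 1.84 ± 0.36 against swimming (edgeR adjusted p = 0.0173). Col5a3, a minor chain of collagen V, rose to 146 ± 18 CPM in the combination, against 63.5 ± 21.2 CPM in controls (log2 fold change 1.20 ± 0.28, edgeR adjusted p = 0.0398). Col5a3 averaged 107 ± 9 CPM under curcumin and 85.1 ± 31.0 CPM under swimming. Col11a2 fell to 9.95 ± 1.10 CPM, against 23.4 ± 11.9 CPM in controls (-1.23 ± 0.30, edgeR adjusted p = 0.04). It averaged 10.75 ± 1.29 CPM under curcumin, close to the combination, and 19.0 ± 1.5 CPM under swimming. The main interstitial chain Col1a1 averaged 2312 ± 79 CPM in the combination, 2037 ± 229 CPM under curcumin, 1069 ± 354 CPM under swimming and 1180 ± 660 CPM in controls, and its difference from control was 0.97 ± 0.40 (edgeR adjusted p = 0.152). The median log2 fold change of the 14 collagens was 0.87 against control, where that of all tested genes was -0.02.

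Of 8 crosslinking enzymes 1 rose in the combination against control, Loxl2, a lysyl oxidase that crosslinks collagen (1.23 ± 0.22, edgeR adjusted p = 0.0192), with 109 ± 2 CPM in the combination and 46.4 ± 8.1 CPM in controls. Beside this and the next counts, 2.43% of all tested genes were called higher and 2.43% lower in combination against control. Loxl2 averaged 77.8 ± 3.0 CPM under curcumin and 71.0 ± 26.1 CPM under swimming. Of 14 matrix glycoproteins 2 rose, Tnc, the adhesion-modulating tenascin-C (1.32 ± 0.26, edgeR adjusted p = 0.0264), and Sparc, a collagen-binding glycoprotein (0.76 ± 0.17, edgeR adjusted p = 0.0343). Of 18 ligands and receptors reported to interact with the family 2 rose, Tgfb2, a TGF-β ligand (1.61 ± 0.24, edgeR adjusted p = 0.00945), and the matricellular protein Ccn4 (0.86 ± 0.14, edgeR adjusted p = 0.0126). Tgfb2 had 28.8 ± 3.9 CPM in the combination, 14.01 ± 0.99 CPM under curcumin, 11.9 ± 4.4 CPM under swimming and 9.42 ± 1.29 CPM in controls. Of 18 other proteoglycans 2 fell, Tgfbr3, the TGF-β co-receptor betaglycan (-1.29 ± 0.22, edgeR adjusted p = 0.0153), and the syndecan Sdc4 (-0.43 ± 0.11, edgeR adjusted p = 0.0476), while the large matrix proteoglycan Vcan was at 1.24 ± 0.32 (edgeR adjusted p = 0.0503). Enzymes that build or modify the proteoglycans gave 0 calls against control in edgeR, with an unadjusted p under 0.05 for 7 of 20 that make chondroitin and dermatan sulfate, 2 of 6 for keratan sulfate and 1 of 2 for tyrosine sulfation, where 26.6% of all tested genes had such a p. Among 13 matrix proteases 0 were called against control in edgeR and 6 had an unadjusted p under 0.05 (26.6% of all genes), with Adamts5 nearest (0.70 ± 0.20, edgeR adjusted p = 0.0567). In these lists and the other small leucine-rich repeat genes, 118 tested genes in all, curcumin against control gave 0 edgeR calls and 23 with an unadjusted p under 0.05 (10.9% of all genes). Swimming against control gave 0 edgeR calls and 20 with such a p (13% of all genes). Combination against control gave 10 edgeR calls (4.86% of all genes) and 49 with such a p (26.6% of all genes). For combination against swimming these were 14 calls (6.66%) and 46 (27.4%). Combination against curcumin gave 1 call (0.851%) and 14 (18%), and swimming against curcumin gave 0 calls (1.78%) and 36 (21.8%).

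**Figure D5:**
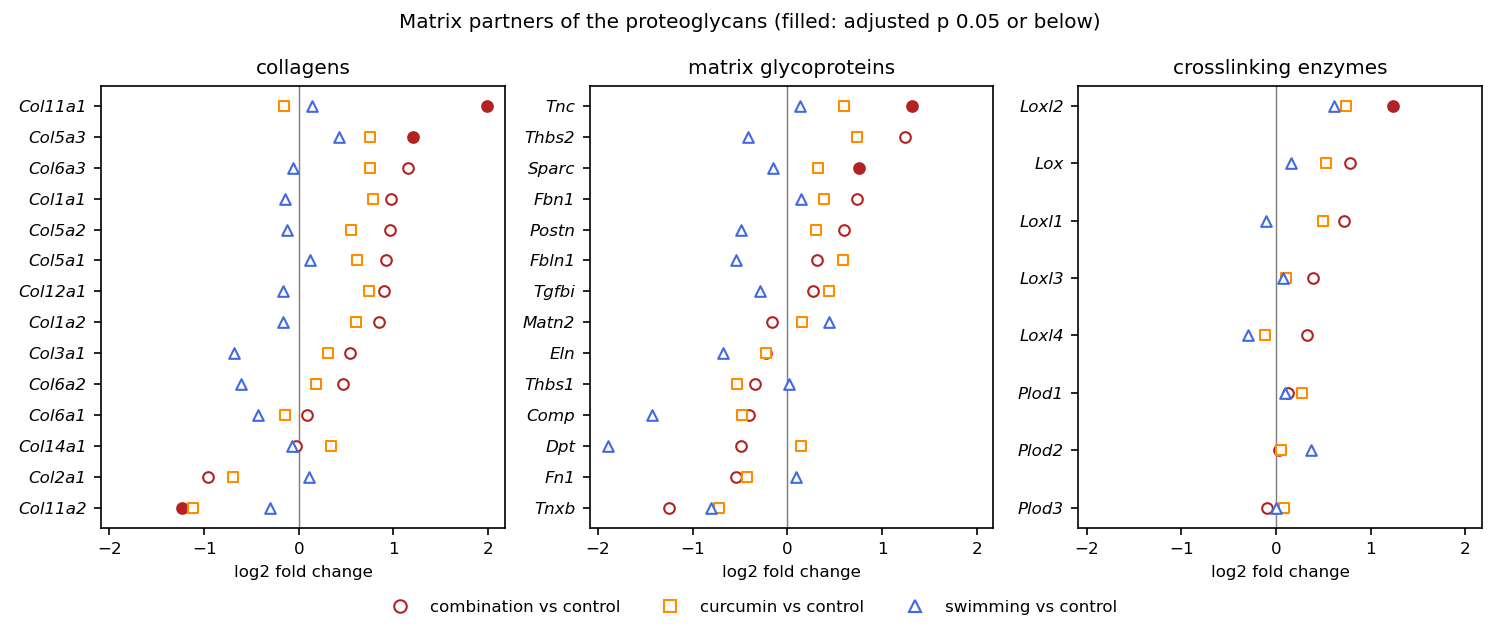
Log2 fold change against control of collagens, matrix glycoproteins and crosslinking enzymes for the combination, curcumin and swimming, with filled symbols at an edgeR adjusted p of 0.05 or below. Col11a1 (1.98), Col5a3 (1.20), Tnc (1.32), Sparc (0.76), Loxl2 (1.23) and Col11a2 (-1.23) are filled, all in the combination.

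Against swimming the combination was again higher for Col11a1, Tnc (1.18 ± 0.26, edgeR adjusted p = 0.0266) and Sparc (0.91 ± 0.17, edgeR adjusted p = 0.0162), and also for the anti-angiogenic matrix protein Thbs2 (1.66 ± 0.34, edgeR adjusted p = 0.0229), while the matrilin Matn2 was lower (-0.60 ± 0.13, edgeR adjusted p = 0.02). In this comparison 3.5% of all tested genes were called higher and 3.15% lower. Of the ligands and receptors 4 rose against swimming, Tgfb2 (1.28 ± 0.23, edgeR adjusted p = 0.0136), Ccn4, the VEGF receptor Kdr, which is also among the endothelial markers, and the HGF receptor Met, and of the other proteoglycans Tgfbr3 and Sdc4 fell again. Among proteases Adamts4, an aggrecanase that can cleave biglycan and decorin, rose (1.35 ± 0.29, edgeR adjusted p = 0.0256) and Mmp3, stromelysin-1, fell (-1.60 ± 0.24, edgeR adjusted p = 0.01). Xylt2, which starts the glycosaminoglycan chains, was lower in the combination than in swimming tumours (-0.61 ± 0.17, edgeR adjusted p = 0.0468). Against curcumin Col11a1 was the single call in the matrix, chain synthesis, ligand and protease lists, where 0.851% of all tested genes were called. Of 9 other small leucine-rich repeat genes 5 could be tested, Ecm2, Chad, Tsku, Podn and Podnl1, and 0 were called in any of the 6 comparisons in edgeR. Of these 5, 2 had an unadjusted p under 0.05 in combination against control (26.6% of all genes) and 2 in swimming against curcumin (21.8%). Such a p was reached by 1 in curcumin against control (10.9%) and by 0 in the other 3 comparisons. Over the 6 comparisons the lowest adjusted p among them was that of Podn for swimming against curcumin, with 5.08 ± 0.95 CPM under swimming and 9.87 ± 2.60 CPM under curcumin (log2 difference -0.96 ± 0.29, edgeR adjusted p = 0.0959). In combination against control it was that of Podnl1, at 39.3 ± 2.8 CPM in the combination and 20.5 ± 11.3 CPM in controls (0.94 ± 0.36, edgeR adjusted p = 0.127).

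Several cell type markers moved with these groups, and their part in the results was not tested. Summed CPM of 12 fibroblast markers was 4639 to 4891 in the combination, 3815 to 4524 under curcumin, 1620 to 2798 under swimming and 1146 to 4032 in controls, with control 2 lowest, and up to 3 of the 12 were at 0 in a library. Fmod per 1000 CPM of that sum was 5.26 to 5.94 in the combination, 1.23 to 1.75 under curcumin, 2.88 to 3.28 under swimming and 2.11 to 5.11 in controls, so control 2 came close to the combination on this scale. Because 77.7% or more of the sum came from Col1a1, Col3a1 and Postn, the ratio was also taken to the other 9 markers. Fmod per 1000 CPM of those was 59.7 to 70.4 in the combination, 15.7 to 16.7 under curcumin, 22.3 to 26.8 under swimming and 19.6 to 26.6 in controls, with the combination apart from all others. Bgn per 1000 CPM of the full sum was 186 to 225 in the combination, 148 to 179 under curcumin, 199 to 258 under swimming and 128 to 270 in controls, so on this scale its combination libraries overlapped those of swimming and control. Per 1000 CPM of the other 9 markers Bgn was 2210 to 2260 in the combination, 1410 to 2270 under curcumin, 1380 to 2120 under swimming and 1210 to 1550 in controls. Dcn per 1000 CPM of the full sum was 6.24 to 6.93 in the combination, 8.29 to 11.4 under curcumin, 5.01 to 12.1 under swimming and 9.22 to 15.5 in controls. Lum was 4.45 to 4.65 in the combination, 5.45 to 7.35 under curcumin, 3.23 to 7.43 under swimming and 4.54 to 8.09 in controls. The swimming libraries, lowest in mean CPM for both genes, overlapped the combination and curcumin libraries on this scale. Per 1000 CPM of the other 9 markers, Dcn was 46.6 to 84.3 under swimming and 98.3 to 109 under curcumin. It was 65.6 to 80.2 in the combination and 69.8 to 140 in controls. Lum was 29.5 to 51.6 under swimming, 68.2 to 70.1 under curcumin, 44.6 to 55.3 in the combination and 21.8 to 97.9 in controls. There the swimming libraries lay below all curcumin libraries for both genes but overlapped the combination. Summed pericyte and smooth muscle markers were 502.5 to 521 CPM in the combination, 398 to 440.0 under curcumin, 275 to 463 under swimming and 341 to 422 in controls. Endothelial markers, of which 7 of 8 were called higher in the combination than in swimming tumours and 1 (Emcn, 1.00 ± 0.22, edgeR adjusted p = 0.0318) than in controls, gave 420.5 to 486 CPM in the combination, 285 to 303 under curcumin, 146 to 224 under swimming and 284 to 400 in controls. Of all tested genes 3.5% were called higher in the combination than in swimming tumours and 2.43% than in controls.

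Skeletal muscle markers spanned 112 to 117 CPM in the combination, 452 to 560.4 under curcumin, 33.9 to 279 under swimming and 14.1 to 640.0 in controls. Of the 12 adipocyte markers, up to 1 was at 0 in a combination library, up to 7 in a curcumin library, up to 6 in a swimming library and up to 7 in a control library. Their sums were 82.0 to 91.5 CPM in the combination, 52.1 to 66.6 under curcumin, 59.3 to 71.7 under swimming and 40.9 to 87.2 in controls. Cfd, Cidec and Pck1 were called higher in the combination than in controls (edgeR adjusted p = 0.0195, 0.0217 and 0.0234). Of all tested genes 2.43% were called higher and 2.43% lower in that comparison. The adipocyte gene Cfd averaged 3.17 ± 0.78 CPM in the combination, 0.126 ± 0.129 under curcumin, 0.789 ± 0.816 under swimming and 0.0392 ± 0.0339 in controls. Of the 12 markers of tendon and cartilage, tissues rich in Fmod, up to 3 were at 0 in a combination library, up to 6 in a curcumin library and up to 5 in a swimming or control library. Hapln1 was at 0 reads in all 12 libraries, Acan at 0 or 1 and Tnmd at 0 to 2, whereas Sox9 had 933 to 2373 reads, Scx 243 to 421, Mkx 69 to 139 and Thbs4 5 to 505. The summed markers were 133 to 142 CPM in the combination, 98.6 to 114 under curcumin, 137 to 187 under swimming and 130 to 173 in controls. Skin markers summed to 144 to 154 CPM in the combination, 102 to 118 under curcumin, 34.8 to 106 under swimming and 71.1 to 107 in controls. Krt14 gave most of the skin sum, at 496 to 2469 reads per library. Krt1, Flg and Dsg1a were at 0 reads in all 12 libraries, Lor at 0 to 4 and Krt5 at 0 to 31. Neutrophil markers, of which 2 were called lower in the combination than in controls and 3 lower than in swimming tumours, summed to 40.6 to 42.3 CPM in the combination, 56.7 to 167 under curcumin, 122 to 132 under swimming and 64.9 to 261 in controls. In combination against swimming 3.15% of all tested genes were called lower. Macrophage markers gave 866 to 871 CPM in the combination, 1039 to 1624 under curcumin, 660 to 1079 under swimming and 850 to 1773 in controls. Bone markers gave 407 to 471 CPM in the combination, 262 to 418 under curcumin, 456 to 723 under swimming and 430 to 501 in controls. Most of the bone sum came from Dmp1 (2611 to 7584 reads) and Ibsp (1180 to 3634 reads). Bglap and Mepe were at 0 to 5 reads per library and Sp7 at 0 to 2. Tumour epithelial markers gave 2894 to 3011 CPM in the combination, 2411 to 2757 under curcumin, 2881 to 3188 under swimming and 2959 to 3135 in controls. Mitochondrially encoded genes, 4 of 10 of them called higher in the combination than in controls, took 4.86% to 6.10% of counts in the combination, 3.34% to 4.06% under curcumin, 4.36% to 4.87% under swimming and 2.96% to 4.30% in controls. Library totals ran from 15069348 to 17278826 counts. The combination replicates were the most alike, with a biological coefficient of variation of 6.47%, against 12.4% under curcumin, 16.4% under swimming and 26.6% in controls, though each pair still differed by more than sampling noise.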

How the data were processed

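RNA sequencing of 12 tumour libraries was analysed from the gene table deposited by the authors, which holds whole read counts and FPKM for 21899 genes. Per the submitters' processing notes, the tools were cutadapt, TopHat2, HISAT2 and HTSeq 0.9.1 and the build was GRCm39, and per the labels' protocol they were aligned with HISAT2 2.0.5 to mm9, so the build is stated in 2 ways and coordinates are given as the table holds them. The deposited FPKM equalled count over length and library total in all 184877 nonzero values (relative tolerance 1e-05). FPKM served to compare levels between genes, and counts served every test. Whether counting used strand is not stated, and reads were not aligned again. The labels describe 30 mice in 5 groups of 5, which do not add up, and a group without tumours that is not analysed here.

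Groups came from the titles. The filter filterByExpr (count of 10, total of 15) left 13638 genes and 7 of the 8 members. After TMM scaling, edgeR 4.0.16 (R 4.3.3) fitted counts with robust quasi-likelihood F-tests over all 12 libraries and 8 residual degrees of freedom, with no replicate block. P-values were Benjamini-Hochberg adjusted over all tested genes. SE is on the log2 scale, CPM uses effective library sizes, and fitted fold changes use a moderated log2 scale. Alternatives were limma 3.58.1 voom with weights per group, DESeq2 1.42.0, no filter, a mean count of 50 or more, RLE scaling, only the groups compared, a replicate block, the combination libraries summed and leaving out each library. A fit without robust estimation was added after the results were seen. The steps were tested on simulated data with a single common spread for all genes and groups. The unequal spread among these groups was not simulated. Library totals bound precision: a floor of 3 counts stands at 0.174 to 0.199 CPM and covers counting error only.

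The members and 22 gene lists (240 genes) were chosen with earlier results of these data known. From each matrix, synthesis, ligand and protease list the text names the calls in combination against control and otherwise genes of smallest p in combination against control or curcumin, and Col1a1, Matn2, Kdr, Met and the marker genes were named after their values were seen. Marker lists are given by their summed levels, and counts of calls are given for some lists and comparisons only. Some lists shown without a count also held calls. Genes most like Fmod are the 5 of highest Pearson r over 12 libraries. Promoter letters come from RefSeq (GRCm38.p6).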

Additional observations from a re-analysis of the deposited data

How the results depend on the processing

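Fold changes of Fmod moved by less than the spread between replicates in 126 of 126 recomputed values. The Bgn call in combination against control, the 1 member called there, became 0 members called without a filter, with the replicate block, with only the groups compared and with the combination libraries summed, and lay between 0 and 1 when 1 library was left out. With only the groups compared, 2 members were called in combination against curcumin (Bgn and Aspn). In combination against swimming the 0 calls became 1 without robust estimation, 2 with DESeq2, 3 with voom and 4 with only the groups compared, and lay between 0 and 4 when 1 library was left out. In swimming against curcumin the 0 calls became 1 without robust estimation, with a mean count of at least 50 and with DESeq2, and 2 with voom and with only the groups compared, and lay between 0 and 2 when 1 library was left out. In swimming against control the member calls lay between 0 and 2 when 1 library was left out. Calls over all genes moved as well. In combination against swimming these were 908, with 1886 in DESeq2, 2797 in voom and 2707 with only the groups compared. In swimming against curcumin they were 243, with 1032 in DESeq2, 907 in voom and 659 with only the groups compared. In combination against curcumin they were 116, with 2121 when only the groups compared were fitted. The cause of these shifts was not tested.

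The interaction lay between -0.28 (without control 3) and 0.92 for Lum and between 1.40 and 2.88 (without swimming 3) for Ogn. Small differences turned round. With voom, Aspn was 0.33 for curcumin against control and 0.22 for swimming against control, and Ogn was -0.063 for swimming against curcumin. For combination against control Dcn was 0.011 with the replicate block and 0.070 with voom. Leaving out 1 library gave ranges across 0 for curcumin against control (Prelp -0.15 to 0.45, Aspn -0.94 to 0.47), swimming against control (Bgn -0.067 to 0.40, Aspn -1.04 to 0.38), combination against control (Lum -0.15 to 1.04, Dcn -0.32 to 0.34) and swimming against curcumin (Aspn -0.39 to 0.16, Ogn -0.81 to 0.67).

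Counts over all genes moved widely. Combination against control gave 663 calls, 1656 with DESeq2, 220 with the replicate block, 132 with only the groups compared and 0 with the combination libraries summed, and lay between 4 and 2182 when 1 library was left out. Replicate numbers gave no clear sign of pairing: of 18 same-numbered pairs 2 correlated above 0.1, and 5 of 12 libraries correlated best with their own number. With 3 libraries a group, these values cannot exclude a pairing. Depth limits Omd (1 to 6 reads) and Ogn (8 to 89 reads), and with 3 libraries a group the wide spread of the controls limits the rest.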
